A study of Mus musculus with 8 samples.

Results

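The 7 genes described here, Egr1, Egr2, Egr3, Nr4a1, Nr4a3, Nab2 and Cd69, are genes that lymphocytes switch on after their antigen receptor is engaged. They were found by gene symbol among the 23234 genes of an RNA sequencing table of mouse germinal centre B cells. Of the 7, 6 reached 1 FPKM (fragments per kilobase of transcript, scaled to mapped fragments) in at least 2 libraries and entered a test over 10610 genes, and Nr4a3 did not. The cells were sorted from the light zone (LZ) or the dark zone (DZ), the compartments in which germinal centre B cells are selected and divide. In the sKO groups the cells were Bach2(+/+), and in the dKO groups Bach2(f/f), floxed for a repressor of the B cell lineage. Every group also carried Prdm1(f/f), floxed for the plasma cell factor Blimp-1, together with ERT2cre(KI/+), a tamoxifen-inducible recombinase, and B1-8hi(KI/+), an antigen receptor gene that binds the hapten NP, on the C57BL/6 background. Prdm1 was floxed in every group, so each genotype comparison sets Bach2(f/f) against Bach2(+/+) cells that were all Prdm1(f/f).

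Naive donor B cells were transferred to wild-type mice, which kept their own lymphocytes, and 3 mg tamoxifen on each of 3 days was used for deletion before immunization with NP-CGG in alum. At day 10 the spleens of 5 recipients were pooled, and NP-binding, GL7-positive, CD38-negative donor cells were sorted as CD86 high and CXCR4 low (LZ) or CD86 low and CXCR4 high (DZ). Each of the 4 groups had 2 libraries from about 30000 cells each. The labels give no age and do not say whether the 2 libraries came from separate pools of mice, so a p-value here reflects the spread of the 8 libraries, which may be technical. Which Bach2 exon was floxed is not given in the sources used here.

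EGR1, EGR2 and EGR3 are zinc finger transcription factors whose genes are switched on within minutes to hours of antigen receptor ligation, through the Ras and ERK kinases and calcium. NAB2 binds the EGR proteins and represses their targets, and its own gene is induced by EGR factors. NR4A1 (Nur77) and NR4A3 are orphan nuclear receptors of the same early response, and Nr4a1 transcription is widely used as a reporter of antigen receptor signalling. CD69 is a surface lectin of recently activated lymphocytes that binds the egress receptor S1PR1 and holds cells in the tissue. In the germinal centre, B cells meet antigen on follicular dendritic cells and help from T cells in the light zone.

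Promoter sequence was used for 4 of the 7 genes (RefSeq, GRCm38.p6; the deposited values were made on mm9). Egr1, Egr3 and Cd69 are not among the 4. The 250 bases before an annotated start are shown for Egr2 and Nr4a1, which differ in steadiness between replicates and in their response elements. This pair was chosen with the values known, and no link between a motif and expression was tested. The windows are chr10:67537619-67537868 and chr15:101266596-101266845, both on the plus strand. Capitals mark each match to a CArG box (the serum response factor site), the core site TGACG, part of the cAMP response element, or the EGR site GCGNGGGCG, on either strand.
Egr2: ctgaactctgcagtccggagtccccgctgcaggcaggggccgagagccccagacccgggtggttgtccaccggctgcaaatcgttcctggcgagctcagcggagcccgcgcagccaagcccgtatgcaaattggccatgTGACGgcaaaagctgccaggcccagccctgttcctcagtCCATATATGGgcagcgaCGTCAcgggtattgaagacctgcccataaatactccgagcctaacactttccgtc
Nr4a1: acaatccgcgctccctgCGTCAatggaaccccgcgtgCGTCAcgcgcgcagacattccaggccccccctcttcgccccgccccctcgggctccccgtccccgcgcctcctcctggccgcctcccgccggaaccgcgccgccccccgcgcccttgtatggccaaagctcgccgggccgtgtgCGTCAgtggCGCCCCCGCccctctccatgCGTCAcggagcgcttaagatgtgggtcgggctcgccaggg

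The Egr2 sequence held 1 CArG box at position -72 from the start site and core sites at -111 and -55. Egr2 has 5 annotated windows of 300 bases, 3 of them overlapping one another with the same matches. The window that starts at 67535249 had no match to any motif searched. The one that starts at 67537316 had a CArG box at -72 and no core site. The Nr4a1 sequence held core sites at -233, -213, -69 and -40, an EGR site at -60 and no CArG box. Nr4a3 had 4 core sites in its window, and Nab2 had no match to any motif searched. No window of these 4 genes matched the full element TGACGTCA, the AP-1 core TGANTCA or the MEF2 site. Over all 32851 windows of 300 bases in the RefSeq table, 1.63% held a CArG box, 20.8% a core site, 5.55% an EGR site, 7.81% the AP-1 core, 1.79% the full element and 0.557% the MEF2 site. A match describes the letters of the sequence and does not show that a factor binds there.

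The libraries held between 502214 and 540885 FPKM in all, 10192 to 10250 genes reached 1 FPKM in each, and the 2 libraries of a group had a Pearson correlation over genes of 0.946 to 0.960. Absolute depth is unknown from FPKM, but the steps of the lowest values put the DZ libraries at 1.41 to 1.63 times the depth of sKO LZ replicate 1, and the other LZ libraries at 1.04 to 1.10 times it. All 9 germinal centre B cell markers were expressed, with a summed level of 2384 to 3153 FPKM. The 5 light zone markers and the 6 dark zone markers followed the sort in both genotypes. This was in part set by the sort, since Cd86 and Cxcr4 are among them. The light zone markers summed to 782 and 866 FPKM in sKO LZ and 609 and 615 in dKO LZ. In DZ they summed to 233 and 242 in sKO and 162 and 163 in dKO. Their part in the genotype differences was not tested. Bach2 itself was at 49.8 to 96.2 FPKM in all libraries and higher in dKO, a level that counts any exon left in place and so does not check the label. Prdm1 was at 0.0577 and 0.0184 FPKM in sKO LZ, 0.980 and 0.967 in dKO LZ, and 0.0473 to 0.434 in DZ, so loss of either gene was not shown by these values.

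Of the genes from other cells, T cell markers summed to 60.2 to 70.0 FPKM in LZ and 34.8 to 38.0 in DZ, nearly all of it Lck, while Cd3e was listed at 0 in every DZ library. The 9 myeloid markers summed to 26.9 to 162 FPKM in LZ, highest in dKO LZ replicate 2, and to 11.9 to 15.4 in DZ, with 7 of the 9 reaching 1 FPKM in some library. The 6 NK cell markers summed to at most 2.66 FPKM in LZ and 0.546 in DZ. Macrophages, T cells and NK cells can express several of the 7 genes too. These markers and the depth moved with the zone, and their part in the zone differences was not tested.

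Both sKO replicate 1 libraries, LZ and DZ, stood apart from their replicates in part of the immediate early response. Fos, an AP-1 subunit, was at 212 and 49.9 FPKM in sKO LZ, 67.6 and 76.1 in dKO LZ, 219 and 66.0 in sKO DZ, and 91.5 and 99.8 in dKO DZ. Its level was thus highest in the replicate 1 library of sKO in both zones, and the other 6 libraries lay between 49.9 and 99.8. Among the 7 genes, Egr1, Nr4a1 and Cd69 showed the same gap, as described below. The zone and genotype differences of these 3 genes are given with and without these 2 libraries. Other results use all 8 libraries unless stated. In the fits without both sKO replicate 1 libraries, the lone sKO library of each zone is assumed to vary like the dKO groups.

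Egr2, Egr3 and Nab2 were expressed at a higher level in the light zone than in the dark zone in both genotypes. For each of them every LZ library lay above every DZ library. The share of all genes whose libraries separate by group is not given here. Such separation, here and below, is therefore not shown to be particular to these genes. Egr2 was at 4.09 and 3.39 FPKM in sKO LZ, 3.32 and 3.33 in dKO LZ, 1.31 and 1.26 in sKO DZ, and 1.01 and 0.918 in dKO DZ. The 4 groups did not overlap. The LZ mean was 2.91 times the DZ mean in sKO (1.05 ± 0.094 on the log2(FPKM + 1) scale, SE, adjusted p = 0.000732, limma with Benjamini-Hochberg adjustment) and 3.44 times in dKO (1.14 ± 0.094, adjusted p = 0.000435).

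Egr3, a close relative of Egr2, was at 7.37 and 9.29 FPKM in sKO LZ, 8.70 and 7.21 in dKO LZ, 1.69 and 2.43 in sKO DZ, and 1.68 and 1.34 in dKO DZ. Its genotypes overlapped within LZ, and its sKO replicates differed in both zones by less than the zones did. It had the largest zone difference of the 6 tested genes, 4.04-fold in sKO (1.61 ± 0.17, adjusted p = 0.00114, limma) and 5.27-fold in dKO (1.83 ± 0.17, adjusted p = 0.00058).

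Nab2, the corepressor gene, was at 9.40 and 9.44 FPKM in sKO LZ, 10.9 and 11.3 in dKO LZ, 4.30 and 4.80 in sKO DZ, and 4.98 and 5.37 in dKO DZ. No groups overlapped, and both the LZ and the DZ level were higher in dKO than in sKO. The zone difference was 2.07-fold in sKO (0.91 ± 0.068, adjusted p = 0.000383, limma) and 2.14-fold in dKO (0.97 ± 0.068, adjusted p = 0.000257). Nab2 overlaps the neighbouring gene Stat6, and no source says that strand was kept, so reads of these neighbours may be mixed. Stat6, a cytokine-activated transcription factor, was also higher in LZ, by 0.32 ± 0.044 in sKO (adjusted p = 0.00325, limma) and by 0.31 in dKO (adjusted p = 0.00299). Its level was 34.3 to 37.2 FPKM in LZ and 28.02 to 29.4 in DZ.

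**Figure D1:**
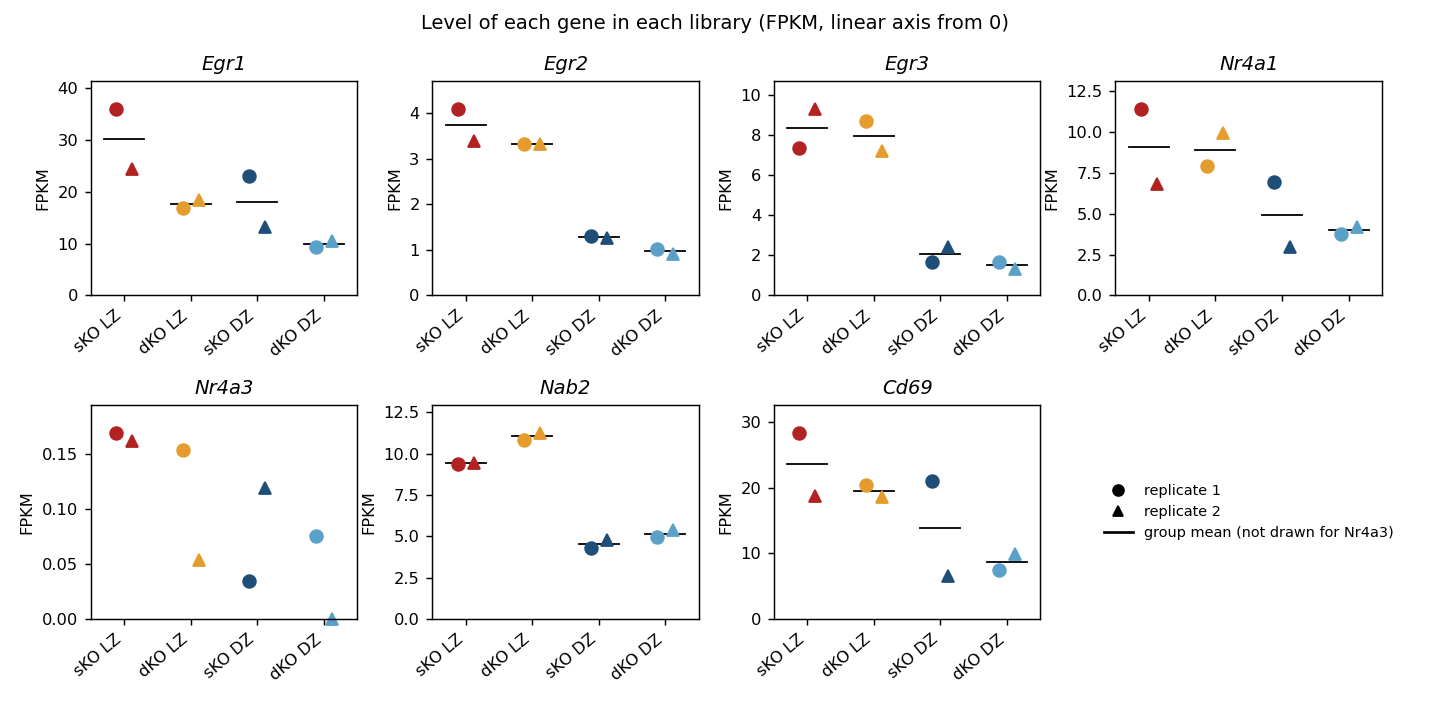
Level of each of the 7 genes in FPKM (vertical axes, linear, from 0) in the 8 libraries, with replicate 1 as a circle, replicate 2 as a triangle and the group mean as a line. Egr2, Egr3 and Nab2 separate by zone, Egr1, Nr4a1 and Cd69 are high in replicate 1 of both sKO groups, and Nr4a3 stays at or below 0.170 FPKM.

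Egr1, Nr4a1 and Cd69 had higher means in LZ in both genotypes, but none of these zone differences passed the test in the main fit. That fit held no replicate block. A block by genotype and number, a pairing that the labels do not give, raised the counts of genes past the test, as given with the other settings. Egr1 was at 36.0 and 24.4 FPKM in sKO LZ, 16.9 and 18.4 in dKO LZ, 23.0 and 13.3 in sKO DZ, and 9.32 and 10.6 in dKO DZ. Replicate 1 of sKO DZ came close to replicate 2 of sKO LZ without reaching it, and the dKO libraries lay close together within each zone and did not overlap between zones. The zone difference was 0.73 ± 0.27 in sKO (1.67-fold, adjusted p = 0.0819, limma) and 0.77 ± 0.27 in dKO (1.78-fold, adjusted p = 0.0669).

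Nr4a1 was at 11.4 and 6.79 FPKM in sKO LZ, 7.91 and 9.95 in dKO LZ, 6.95 and 2.95 in sKO DZ, and 3.78 and 4.17 in dKO DZ. The sKO zones overlapped, since DZ replicate 1 lay above LZ replicate 2, and the dKO zones did not. The zone difference was 0.81 ± 0.35 in sKO (adjusted p = 0.128, limma) and 0.99 ± 0.35 in dKO (adjusted p = 0.0727).

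Cd69 was at 28.4 and 18.8 FPKM in sKO LZ, 20.4 and 18.6 in dKO LZ, 21.1 and 6.63 in sKO DZ, and 7.55 and 9.91 in dKO DZ. Replicate 1 of sKO DZ was as high as the LZ libraries, and the other 3 DZ libraries lay below all LZ libraries. The zone difference was 0.89 ± 0.47 in sKO (adjusted p = 0.195, limma) and 1.09 ± 0.47 in dKO (adjusted p = 0.122). S1pr1, whose product CD69 draws in from the cell surface, ran the other way, at 0.804 to 1.55 FPKM in LZ and 1.79 to 2.88 in DZ. S1pr1 was lower in LZ by 0.68 ± 0.19 in sKO (adjusted p = 0.0346, limma), and the difference in dKO was -0.51 (adjusted p = 0.078, and 0.0145 without both sKO replicate 1 libraries).

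In all, 3 of the 6 tested genes were higher in LZ in sKO, against 15.2% of all 10610 genes higher, 16.1% lower and 31.2% called in either direction. The count was 3 of 6 in dKO, against 18% of all genes higher, 16.1% lower and 34.1% called. The median zone difference of the 6 was 0.90 in sKO and 1.04 in dKO, with medians near 0 over all genes (-0.0045 and 0.0065). Without both sKO replicate 1 libraries, all 6 were higher in LZ in sKO, against 10.1% of 10482 genes higher and 24.8% called in either direction, and all 6 in dKO, against 20% higher and 37.8% called. There Egr1 was higher by 0.83 in sKO (adjusted p = 0.0125, limma), Nr4a1 by 0.98 (adjusted p = 0.0228) and Cd69 by 1.38 (adjusted p = 0.0130). With only the 4 dKO libraries in the fit, all 6 were again higher in LZ, against 20.7% of genes higher and 39.1% called, with adjusted p = 0.0030 for Egr1, 0.00433 for Nr4a1 and 0.00422 for Cd69. The zone differences in dKO were the same in all 3 fits, and the estimate of the spread was not. In bulk RNA, fewer cells that express a gene and less of its RNA per cell cannot be told apart, here or in the results below.

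Nr4a3 was barely detected, at 0.170 and 0.162 FPKM in sKO LZ, 0.154 and 0.0536 in dKO LZ, 0.0348 and 0.120 in sKO DZ, and 0.0757 in dKO DZ replicate 1, and was listed at 0 in dKO DZ replicate 2. It was not tested. The other family genes Egr4 and Nr4a2 were as low, at no more than 0.351 and 0.160 FPKM. Nab1, the other corepressor of EGR proteins, was at 14.7 to 15.5 FPKM in LZ and 9.69 to 12.3 in DZ. It was higher in LZ by 0.33 ± 0.056 in sKO (adjusted p = 0.00689, limma) and by 0.50 ± 0.056 in dKO (adjusted p = 0.00133).

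None of the 6 tested genes passed the test between Bach2 genotypes, in LZ or in DZ. The count at an unadjusted p under 0.05 was 2 in LZ (Egr1 and Nab2), against 43.4% of all genes, and 1 in DZ (Egr1), against 28.1%. At an adjusted p under 0.05 it was 0 of 6 in LZ, against 31.1% of all genes (18.4% higher and 12.7% lower in dKO), and 0 of 6 in DZ, against 11.9% (6.63% higher and 5.23% lower). Egr1 had a mean of 30.2 ± 8.20 FPKM (SD, n = 2) in sKO LZ and 17.6 ± 1.04 in dKO LZ, a difference of -0.72 ± 0.27 (adjusted p = 0.0849, limma). In DZ its means were 18.1 ± 6.88 and 9.94 ± 0.876, a difference of -0.76 ± 0.27 (adjusted p = 0.121). All 4 dKO libraries lay below the sKO libraries of their zone.

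The Egr1 difference in LZ depended on which libraries entered. Without both sKO replicate 1 libraries it was smaller, -0.45 ± 0.097, and passed the test (adjusted p = 0.0322, limma), making 1 of 6 genes lower against 10.3% of all genes lower and 28.5% called. Egr1 also passed at the same size of difference without sKO DZ replicate 1 (adjusted p = 0.0338) or sKO DZ replicate 2 (adjusted p = 0.0343), which enter only through the shared spread. Without sKO LZ replicate 1 alone it did not (adjusted p = 0.305). In DZ it was -0.38 without both sKO replicate 1 libraries (adjusted p = 0.0947, 0 of 6 genes called against 5.49% of all genes).

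The other 5 genes had genotype differences from -0.23 to 0.21 in LZ and from -0.43 to 0.16 in DZ. Nab2 alone had a positive difference in both zones, with means of 9.42 ± 0.0247 and 11.1 ± 0.293 FPKM (SD, n = 2) in sKO and dKO LZ (0.21 ± 0.068, adjusted p = 0.0574, limma). In DZ it was at 4.55 ± 0.355 and 5.18 ± 0.277 (0.16 ± 0.068, adjusted p = 0.199). Egr2 differed by -0.13 ± 0.094 in LZ (adjusted p = 0.343), and went from 1.29 ± 0.0352 to 0.966 ± 0.0680 in DZ (-0.22 ± 0.094, adjusted p = 0.191). Egr3 differed by -0.06 ± 0.17 in LZ and -0.28 ± 0.17 in DZ. Nr4a1 (0.01 ± 0.35 in LZ, -0.17 ± 0.35 in DZ) and Cd69 (-0.23 ± 0.47, -0.43 ± 0.47) had the widest errors. Without both sKO replicate 1 libraries Nr4a1 stood at 0.34 and 0.33 and Cd69 at 0.05 and 0.34, none past the test, so no direction can be given for either gene.

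**Figure D2:**
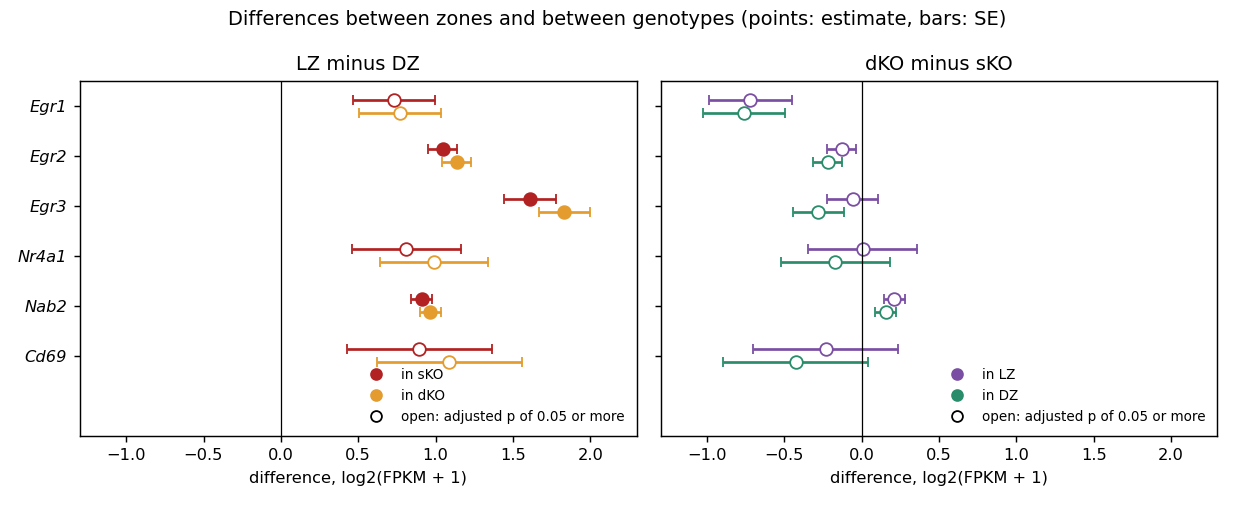
Differences of the 6 tested genes on the log2(FPKM + 1) scale (horizontal axes), LZ minus DZ in sKO and dKO on the left and dKO minus sKO in LZ and DZ on the right, as estimate with SE, filled where the adjusted p is under 0.05. All 12 zone estimates lie above 0 and 6 are filled, while no genotype estimate is filled.

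For none of the 6 genes did the zone difference itself differ between genotypes past the threshold. The zone difference in dKO minus that in sKO ran from 0.04 for Egr1 to 0.22 for Egr3, with adjusted p of 0.755 to 0.981 (limma) and 0 of 6 genes past the threshold, against 0.0283% of all genes. At an unadjusted p under 0.05 there were also 0 of 6, against 11.6% of all genes. The zone accounted for 96.3% of the spread of Egr2 over the 8 libraries (sum of squares on the log2 scale), 96.2% of that of Egr3 and 95.5% of that of Nab2. For Egr1 the zone accounted for 42.1%, the genotype for 41% and the replicates for 16.8%. Replicates accounted for 32.2% of the spread of Nr4a1 and 39.1% of that of Cd69.

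The order of the groups also differed among the genes. Egr2 had 4 levels that did not overlap, sKO LZ above dKO LZ above sKO DZ above dKO DZ. Nab2 also had 4 separate levels, with dKO above sKO within each zone. For Egr1 the groups in the middle, sKO DZ and dKO LZ, overlapped. For Cd69 each group overlapped the next in order. These orders rest on 2 libraries a group and are a description.

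The gap between replicate 1 and replicate 2 of the sKO groups differed among the 6 genes. It was 0.54 (LZ) and 0.75 (DZ) on the log2 scale for Egr1, 0.67 and 1.01 for Nr4a1, and 0.57 and 1.53 for Cd69. For Egr2 it was 0.22 and 0.03, for Nab2 0.00 and -0.13, and for Egr3 it ran the other way, -0.30 and -0.35. In the dKO groups the widest gaps were -0.35 for Cd69 in DZ and -0.30 for Nr4a1 in LZ. A gap of at least 0.5 in both sKO zones was present in 3 of the 6 genes, against 0.613% (65) of all 10610 genes. This threshold was chosen after the values were seen, so the count describes these libraries and is not a test.

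Among 26 other tested antigen receptor response genes, 7 had that gap, which is 26.9%: Fos, Fosb, Jun, Junb, Zfp36, Klf6 and Dusp1. They encode AP-1 subunits, an mRNA decay factor (Zfp36), a zinc finger factor (Klf6) and a phosphatase that switches off MAP kinases (Dusp1). Fosb was at 69.2 and 8.16 FPKM in sKO LZ and 69.7 and 10.4 in sKO DZ, and at 15.3 to 24.8 in the 4 dKO libraries. Dusp1 was at 58.7 and 11.1 FPKM in sKO LZ and 63.7 and 13.5 in sKO DZ, and at 16.9 to 23.7 in dKO. None of the 19 genes of the receptor pathway itself, the 15 upstream transcription factors or the 9 heat shock genes had the gap in both zones. Of all genes, only 0.613% had it, so lists of this size would seldom hold one. Of the stress-inducible chaperone genes, Hspa1a had gaps of 0.53 in sKO LZ and 0.32 in sKO DZ, Hspa1b of 0.56 and 0.22, and Dnajb1 of 0.45 and 0.05. In dKO LZ and dKO DZ the gaps of these chaperone genes were 0.09 and 0.33, 0.23 and 0.18, and 0.07 and 0.02. Their part in the gap of the 6 genes was not tested. The part of the sKO replicate 1 libraries in the differences of Egr1, Nr4a1 and Cd69 is measured above by leaving them out.

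**Figure D3:**
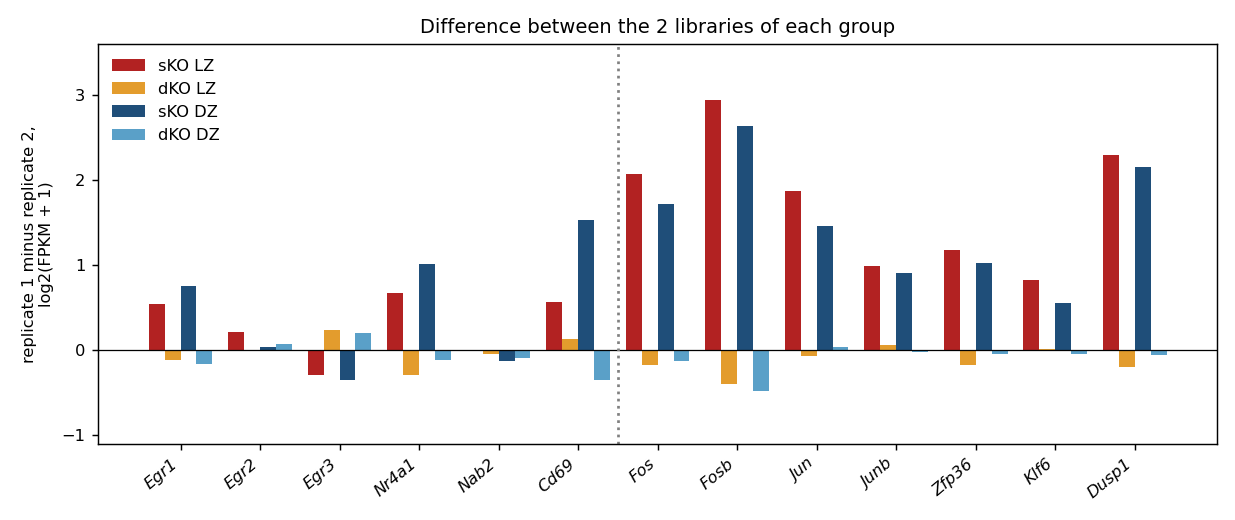
Replicate 1 minus replicate 2 on the log2(FPKM + 1) scale (vertical axis) within each group, for the 6 tested genes (left of the dotted line) and the 7 other response genes with a gap of at least 0.5 in both sKO zones. The sKO bars of Egr1, Nr4a1 and Cd69 point up with those of Fos and its neighbours, and the dKO bars are shorter, the widest at -0.49 for Fosb in DZ.

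Other response genes split between the zones. Of 26 tested, 5 were higher and 5 lower in LZ in sKO, and 7 were higher and 4 lower in dKO, with medians of 0.23 and 0.16. The shares over all genes were 15.2% higher and 16.1% lower in sKO, and 18% and 16.1% in dKO. Cd83, a light zone surface protein, was at 320 to 359 FPKM in sKO LZ against 94.6 and 98.3 in sKO DZ, higher in LZ by 1.80 ± 0.058 in sKO (adjusted p = 4e-05, limma) and by 2.02 in dKO. Nfkbid, a nuclear inhibitor of NF-kB, was higher by 1.25 and 1.76, and Irf4, a factor induced by receptor and CD40 signals, by 1.45 and 2.13. Dusp5, a nuclear ERK phosphatase, was lower in LZ by 0.65 in sKO, and Btg2, an antiproliferative gene, by 0.43 in dKO. Leaving out 1 library moved these counts between 3 and 7 higher and 3 and 5 lower in sKO, and between 4 and 9 higher and 3 and 4 lower in dKO. Without both sKO replicate 1 libraries they were 9 and 6 of 25 in sKO and 12 and 8 in dKO. Among the 8 lower genes in dKO there were Fos (-0.41 ± 0.075), Jun (-0.44), Klf6 (-0.43) and Dusp1 (-0.34), opposite to the 6 genes above.

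**Figure D4:**
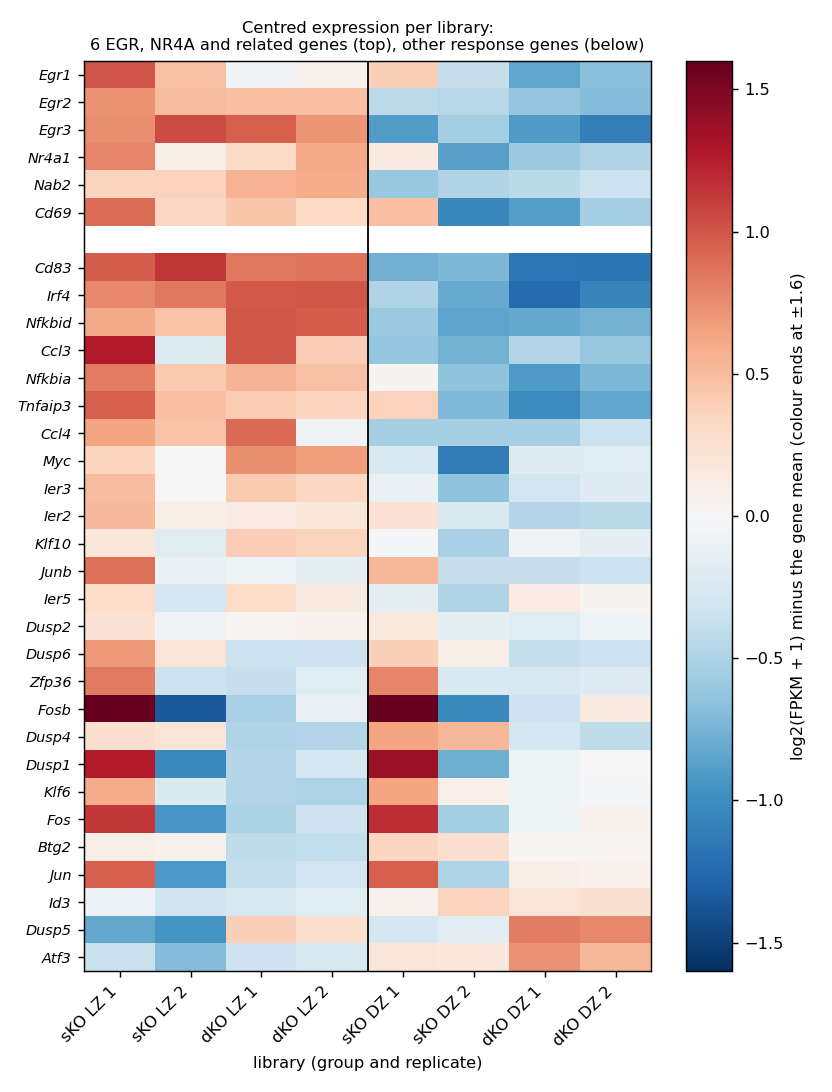
Centred log2(FPKM + 1) per library (columns, 2 of each group, the line between LZ and DZ) for the 6 tested genes (top) and 26 other response genes (below, ordered from higher in LZ to higher in DZ). Cd83, Irf4 and Nfkbid share the zone pattern of Egr2, Egr3 and Nab2, and Fos, Fosb and Dusp1 are high in both sKO replicate 1 libraries.

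With Bach2 genotype, 2 of the 26 other response genes were higher and 4 lower in dKO LZ, and 1 was higher and 4 lower in dKO DZ. Over all genes, 31.1% were called in LZ and 11.9% in DZ. Dusp5 was at 8.29 and 7.54 FPKM in sKO LZ, 20.3 and 18.6 in dKO LZ, 12.5 and 13.5 in sKO DZ, and 28.02 and 27.1 in dKO DZ. It rose in dKO by 1.20 ± 0.070 in LZ (adjusted p = 0.000811, limma) and by 1.03 ± 0.070 in DZ (adjusted p = 0.00155). Dusp4, a related nuclear phosphatase, fell from 5.60 and 5.39 FPKM to 2.95 and 3.00 in LZ (-0.71 ± 0.072, adjusted p = 0.00162) and from 7.52 and 6.997 to 3.52 and 3.16 in DZ (-0.93 ± 0.072, adjusted p = 0.00233). Dusp6, a cytoplasmic ERK phosphatase, fell by 0.79 in LZ (adjusted p = 0.0118), and Btg2 fell by 0.48 in LZ and 0.27 in DZ. Cd83 was lower in dKO DZ by 0.42. Leaving out 1 library gave 1 to 3 higher and 2 to 4 lower in LZ, and 1 to 2 higher and 1 to 5 lower in DZ. These counts also depended on both sKO replicate 1 libraries together, and the leave-out ranges above do not cover that. Without both of them, the LZ differences of the 7 genes with the replicate gap moved up. Fos went from -0.52 to 0.51, Fosb from -0.44 to 1.03, Jun from -0.36 to 0.57 and Dusp1 from -0.49 to 0.66. Junb went from -0.49 to 0.005, Zfp36 from -0.52 to 0.07 and Klf6 from -0.66 to -0.25.

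Genes that carry the antigen receptor signal were lower in dKO where they changed. Of 19 tested, 11 were lower and 0 higher in dKO LZ, and 5 lower and 0 higher in dKO DZ. Over all genes, 12.7% were lower in LZ and 5.23% in DZ. The naive B cell markers were also lower, with a summed level of 366 and 399 FPKM in sKO LZ, 196 and 204 in dKO LZ, 112 to 117 in sKO DZ and 56.5 to 57.2 in dKO DZ, and their part was not tested. Syk, the kinase that reads the phosphorylated receptor, was at 153 and 150 FPKM in sKO LZ and 109 and 110 in dKO LZ (-0.47 ± 0.037, adjusted p = 0.000979, limma). The inhibitory receptor gene Cd22 (-0.40) and the kinase gene Lyn (-0.23) were also lower in dKO LZ. The LZ count fell to 5 without dKO LZ replicate 1, to 6 without dKO LZ replicate 2 and to 7 without sKO LZ replicate 1. In DZ it fell to 0 without either dKO DZ library and to 3 without sKO DZ replicate 1 or either dKO LZ library. By zone, 5 of the 19 were higher and 4 lower in LZ in sKO, and 4 higher and 5 lower in dKO. The sKO count of lower genes was 1 without replicate 2 of sKO LZ or of sKO DZ, and 2 without sKO DZ replicate 1. The dKO count of lower genes was 3 without dKO LZ replicate 1, 2 without dKO DZ replicate 1 and 3 without dKO DZ replicate 2.

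Of 15 transcription factors and cofactors that act upstream of these genes, 5 were lower and 0 higher in dKO LZ, and 3 lower and 1 higher in dKO DZ. The LZ count in either direction is near the 31.1% of all genes called there, and 11.9% of all genes were called in DZ. By direction, 12.7% of all genes were lower and 18.4% higher in LZ, and 5.23% were lower and 6.63% higher in DZ. Elk3, a ternary complex partner of serum response factor, was lower in LZ by 0.49 ± 0.055 (adjusted p = 0.00198, limma), Nfatc2 by 0.27, Nfatc1 by 0.17 and the serum response factor coactivator gene Mkl1 by 0.21. Leaving out 1 library gave counts of 1 to 4 lower in LZ, with 1 without either dKO LZ library. In DZ, Nfatc1, Nfatc2 and Elk3 were lower and Mef2c higher, and 0 were lower without either dKO DZ library or without sKO DZ replicate 1, and 1 without sKO DZ replicate 2. The count of higher genes in DZ was 0 without any 1 of the dKO LZ, sKO DZ or dKO DZ libraries. Between zones, Mef2c was higher in LZ in both genotypes, and Mef2d and Nfatc3 were lower in both.

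The genes whose pattern over the 8 libraries was most like the mean of the 6 were ranked by Pearson correlation among 504 genes of at least 5 FPKM on average and a range of at least 1 on the log2 scale. The closest 8 were Nfkbia (r = 0.988), Slamf1 (0.972), Irf4 (0.968), Plekhm3 (0.968), Il4i1 (0.967), Fam55b (0.966), Birc3 (0.964) and Napsa (0.963). Nfkbia, the NF-kB inhibitor, was at 110 and 83.1 FPKM in sKO LZ, 90.7 and 86.1 in dKO LZ, 63.8 and 39.2 in sKO DZ, and 32.6 and 37.2 in dKO DZ. It was thus high in both sKO replicate 1 libraries as well as in LZ. The correlations describe 8 libraries that share their zone and their replicates, and carry no test.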

How the data were processed

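RNA of sorted mouse germinal centre B cells was extracted with TRIzol and prepared with the NEBNext Ultra RNA kit, per the labels' protocols. The authors deposited FPKM values for 23234 gene symbols in 8 libraries, in 1 table, per the file headers. The submitters' processing notes name TopHat2 2.0.8, Cufflinks 2.1.1 and mm9 without their order or options. The final line of the table, which holds library codes, was dropped, and unmatched columns numbered 0. Read counts were not analysed here, so no count test was run, and depth is known only relative to other libraries.

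Values were taken as log2(FPKM + 1), which understates the change of low genes. A gene was tested if 2 or more libraries reached 1 FPKM (10610 genes). All 8 libraries entered 1 fit of the 4 group means by limma 3.58.1 (R 4.3.3), with the variance trended on intensity and 4 residual and 2.46 prior degrees of freedom. The 5 contrasts were 2-sided, with Benjamini-Hochberg adjustment over all genes tested and a threshold of 0.05. Rose, fell, higher and lower in a count mean past it. The fits were tested on simulated data. Alternatives were other pseudocounts, filters, scalings and variance priors, replicate blocks, fits of the compared libraries alone, and leaving out each library. The fit without both sKO replicate 1 libraries was added after seeing the data.

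The 7 genes and the gene lists were chosen with earlier results of these data known. From each list at most 4 genes with the smallest p per contrast were named. A result that this rule names is not reported here. The genes most like the 7 were named by the ranking given with them, which left out antigen receptor segments, gene models without a name, and small RNA genes. The 7 response genes with the sKO replicate gap, its threshold of 0.5, Stat6, Klf2, Hspa1a, Hspa1b and Dnajb1 were chosen after their values were seen. Motifs were searched in RefSeq promoter windows (GRCm38.p6) of 250 bases before to 50 after each start.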

Additional observations from a re-analysis of the deposited data

How the results depend on the processing

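For the 6 tested genes in the 5 comparisons, 632 values under other settings were computed: 578 kept their direction and their side of the threshold, 28 passed it where the reported value did not, 0 lost a call and 26 changed sign, all of these for differences that did not pass. Egr2, Egr3 and Nab2 stayed higher in LZ in both genotypes in every setting in which they were tested. The count of genes past the test in LZ was 3 in each genotype. It was 1 and 1 with a filter at a mean of 5 FPKM, which removed Egr2 and Egr3 from the test, and 6 in dKO with only the libraries compared. The fit without both sKO replicate 1 libraries is left out of this count, since those libraries were chosen on the values of some of these genes. The labels do not say that equal replicate numbers pair the samples, so the main fit held no block. The deviations of same-numbered libraries correlated at -0.11 to 0.12 over genes. That range cannot exclude a pairing that shows in few genes. The gap of Fos, for example, was 2.07 in sKO LZ and 1.72 in sKO DZ. With a replicate block over all groups the counts stayed at 3 and 3, and with a replicate block by genotype and number they were 5 in sKO and 6 in dKO.

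In the LZ genotype comparison, 1 of 6 passed with a pseudocount of 5 (Nab2, 0.16, adjusted p = 0.0366, limma), 1 without the intensity trend (Nab2, adjusted p = 0.0494) and 1 without both sKO replicate 1 libraries (Egr1). Over all its settings the adjusted p ran from 0.0366 to 0.208 for Nab2 and from 0.0322 to 0.305 for Egr1. The Nr4a1 difference in LZ was -0.0022 with a pseudocount of 5 and -0.048 with upper quartile scaling. Without both sKO replicate 1 libraries Cd69 was at 0.052 in LZ, Nr4a1 at 0.33 and Cd69 at 0.34 in DZ, and the difference of the genotype effects was -0.064 for Egr1 and -0.29 for Cd69. That difference for Egr1 was -0.019 with a pseudocount of 5 and -0.0048 after quantile normalization.

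Leaving out 1 library at a time gave 0 to 1 genes past the genotype test in LZ and 3 to 6 past the zone test in each genotype. The calls over all genes ranged from 1703 to 3158 in the LZ genotype comparison, 112 to 1346 in DZ, 2006 to 3032 and 2007 to 3864 for zone in sKO and dKO, and 2 to 6 for the difference of the genotype effects. Differences that changed sign ran from -0.21 to 0.093 (Egr3), -0.33 to 0.34 (Nr4a1) and -0.52 to 0.052 (Cd69) for genotype in LZ, and from -0.68 to 0.33 (Nr4a1) and -1.19 to 0.34 (Cd69) in DZ. The difference of the genotype effects ran from -0.33 to 0.42 for Egr1, -0.018 to 0.20 for Egr2, -0.33 to 0.68 for Nr4a1, -0.0091 to 0.12 for Nab2 and -0.57 to 0.96 for Cd69. The cause was not tested.

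Over all genes, the DZ genotype comparison called 1258, and 575 without both sKO replicate 1 libraries or 772 with only the libraries compared. The zone comparison in sKO called 3312, and 1895 with only the libraries compared. The difference of the genotype effects called 3, and 5 with no filter, 5 with a robust prior, 5 with the replicate block by genotype and number and 11 without both sKO replicate 1 libraries. Scaling moved the share of higher calls from 59% to 45.5% in the LZ genotype comparison (upper quartile), from 55.9% to 66.9% in DZ (TPM), and from 48.6% to 34.4% and 52.9% to 33.8% for zone in sKO and dKO (TPM).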

Other observations

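Of 9 tested heat shock and chaperone genes, 6 were higher and 0 lower in dKO LZ, and 4 were higher and 0 lower in dKO DZ. Over all genes, 18.4% were higher in LZ and 6.63% in DZ. Hsp90aa1, a cytosolic chaperone, rose by 0.52 ± 0.044 in LZ (adjusted p = 0.00107, limma) and by 0.36 ± 0.044 in DZ (adjusted p = 0.00795). Hspa8, a constitutive chaperone, rose by 0.45 in LZ and 0.25 in DZ, and the mitochondrial chaperone gene Hspd1 by 0.68 and 0.40. The stress-inducible genes Hspa1a, Hspa1b and Dnajb1 did not pass in either zone, with differences of 0.21, 0.18 and 0.21 in LZ. In sKO LZ they were 2.42, 2.62 and 1.38 times as high in replicate 1 as in replicate 2. Hspa1a (1.09 and 0.449 FPKM) and Hspa1b (1.08 and 0.412 FPKM) lay near the filter of 1 FPKM there. Replicate 1 was also the higher in dKO LZ and DZ, 1.13 and 1.49 times for Hspa1a and 1.39 and 1.24 times for Hspa1b. For Dnajb1 it was 1.05 and 1.01 times. Leaving out 1 library gave 6 to 7 higher in LZ, and 0 to 4 in DZ, with 0 without either dKO DZ library and 1 without sKO DZ replicate 1.

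Klf2, a lymphocyte quiescence factor that activates S1pr1, was at 10.55 and 3.94 FPKM in sKO LZ, 3.00 and 4.13 in dKO LZ, 11.3 and 3.49 in sKO DZ, and 4.38 and 4.07 in dKO DZ. It was thus high in the same 2 sKO replicate 1 libraries, and S1pr1 was also at its highest within each sKO zone there (1.55 and 2.88 FPKM).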
